A study of Mus musculus with 18 samples.

Results

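The myogenic transcription factors described here are the DNA-binding proteins that specify paraxial mesoderm, commit cells to the skeletal muscle lineage and switch on the contractile genes. They are 9 genes, Pax3, Pax7, Myf5, Myf6, Myod1, Myog, Mef2c, Meox1 and Tbx6, of 30869 gene symbols on the array, and they were found as the 15 of 45281 probes annotated with one of these symbols. The cells were ESD3 mouse embryonic stem cells of strain 129s2/SvPas that carried a viral shRNA directed either at luciferase (control) or at HPRT, the purine salvage enzyme hypoxanthine-guanine phosphoribosyltransferase (HPRT knockdown). All cells had been selected with puromycin, and the ESD3 cells were maintained in ES medium on primary mouse embryo fibroblast feeder cells. They were profiled at the undifferentiated stage (ES), as spherical neural masses (SNM) and as the final product of a dopaminergic neuronal differentiation (neuronal stage), which gave 6 conditions with 3 arrays each and 18 arrays in all. The RNA of replicate cultures was pooled before hybridisation, so that the 3 arrays of a condition repeat 1 pool, and all errors and p-values below measure the spread between arrays and not between cultures. The genes were selected on the log2 differences between knockdown and control cells at the neuronal stage, where low muscle signals were already known. Every contrast that uses neuronal-stage arrays is therefore given as a description without a test, whereas the ES and SNM arrays were tested.

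In the embryo, Tbx6 and Meox1 act in the presomitic mesoderm and the somites, Pax3 and Pax7 mark the muscle progenitors that leave the somite, Myf5 and Myod1 commit cells to the myoblast fate, and Myog and Myf6 (also called MRF4) drive the fusion and maturation of muscle fibres. Mef2c is a MADS-box partner of these factors. The set is not restricted to muscle, since Pax3 and Pax7 are also made in the dorsal neural tube and neural crest, and Mef2c in heart, endothelium and cortical neurons. In bulk RNA, fewer cells of a type and less RNA per cell cannot be told apart.

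By its brightest probe Myog had the largest fitted difference between control and knockdown cells at the neuronal stage, and its promoter is shown because its known regulators are among the genes measured here. MyoD-family proteins bind the E-box CANNTG and MEF2 proteins bind an AT-rich element. The 250 bases before the RefSeq start of Myog (GRCm38.p6, plus strand) are given 5′ to 3′, with the letters CANNTG and CTANNNNTA in capitals, both strands searched.
Myog, chr1:134289754-134290003: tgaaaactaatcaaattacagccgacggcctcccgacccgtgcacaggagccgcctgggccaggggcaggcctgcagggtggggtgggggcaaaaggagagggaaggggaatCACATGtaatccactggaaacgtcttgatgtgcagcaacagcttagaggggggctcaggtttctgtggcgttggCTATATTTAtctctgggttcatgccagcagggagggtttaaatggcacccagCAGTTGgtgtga
The E-box letters begin 138 and 12 bases before the start, and CTANNNNTA 64 bases before it. Among 32851 mouse promoter windows of this length, 66.2% hold CANNTG and 19% hold CTANNNNTA or its reverse complement. The first search used CANNTG, the E-box core CAGCTG (in 13% of windows) and the stricter MEF2 form, CTANNNNTA with a closing G (in 3.2%), and neither of the latter pair occurs in this window. CTANNNNTA without the closing G was added with the Myog sequence in view, so that its presence is a description of this promoter and no evidence about it. Of the other members in the promoter table, Myf5 holds letters of the stricter form, CTAGGTTTAG, 182 bases before its start and no CANNTG. Mef2c holds CANNTG before some of its starts and CTANNNNTA, as CTAACGATA, 191 bases before a single start. The middle bases of these matches, GGTT in Myf5 and ACGA in Mef2c, are not all A or T, so they match in letters only. Pax7 and Tbx6 hold none of these letters.

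The arrays behaved alike within conditions, with a correlation of log2 signals between arrays of the same condition of 0.992 to 0.997 and between 18827 and 22202 probes detected per array. Hprt1, the targeted gene, was lower in knockdown cells at every stage, with a mean log2 signal of 7.95 against 12.04 at the ES stage, 9.44 against 11.2 at the SNM stage and 6.6 against 11.05 at the neuronal stage. The difference was smallest at the SNM stage (log2 difference -1.76 ± 0.08, SE). Markers of the stages followed the labels in part. All 10 embryonic stem cell markers were detected on every ES array and were lower at the SNM stage in control cells, and 8 of the 9 neuron markers tested were higher there. Control cells at the neuronal stage held neuron markers and also the highest skeletal muscle signals of the series, described further on.

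At the ES stage the myogenic factors were near the detection limit. None of the 9 genes was detected on all 3 control arrays by its brightest probe, the probe used for a gene throughout, and 1, Tbx6, was detected on all 3 knockdown arrays. By any of a gene's probes, 2 members were detected on all 3 control arrays, Myog by ILMN_2621812 and Mef2c by ILMN_2887992. Detection means an Illumina detection p below 0.05, and normalized log2 signals of about 4.2 to 4.8 mostly belong to undetected probes. Tbx6, a T-box factor of the presomitic mesoderm, read 4.73, 4.91 and 4.80 in control and 5.01, 4.97 and 4.97 in knockdown cells. The knockdown arrays lay slightly above the control arrays, but the difference of 0.17 ± 0.12 (SE, n = 3 and 3 arrays) did not pass the limma test (adjusted p = 0.399). The second Tbx6 probe, ILMN_2660916, read 4.17 to 4.31 over all 18 arrays and was detected on none. No member passed the call at this stage, which asks for an adjusted p below 0.05 and at least 1.5-fold. Tbx6 was the member past the detection filter here, and its unadjusted limma p was not below 0.05 either. The methods' t-test gave Tbx6 an unadjusted p of 0.0383 and 0.192 after Benjamini-Hochberg adjustment. Of the 18411 probes tested at the ES stage, 1.68% were called in either direction.

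**Figure D1:**
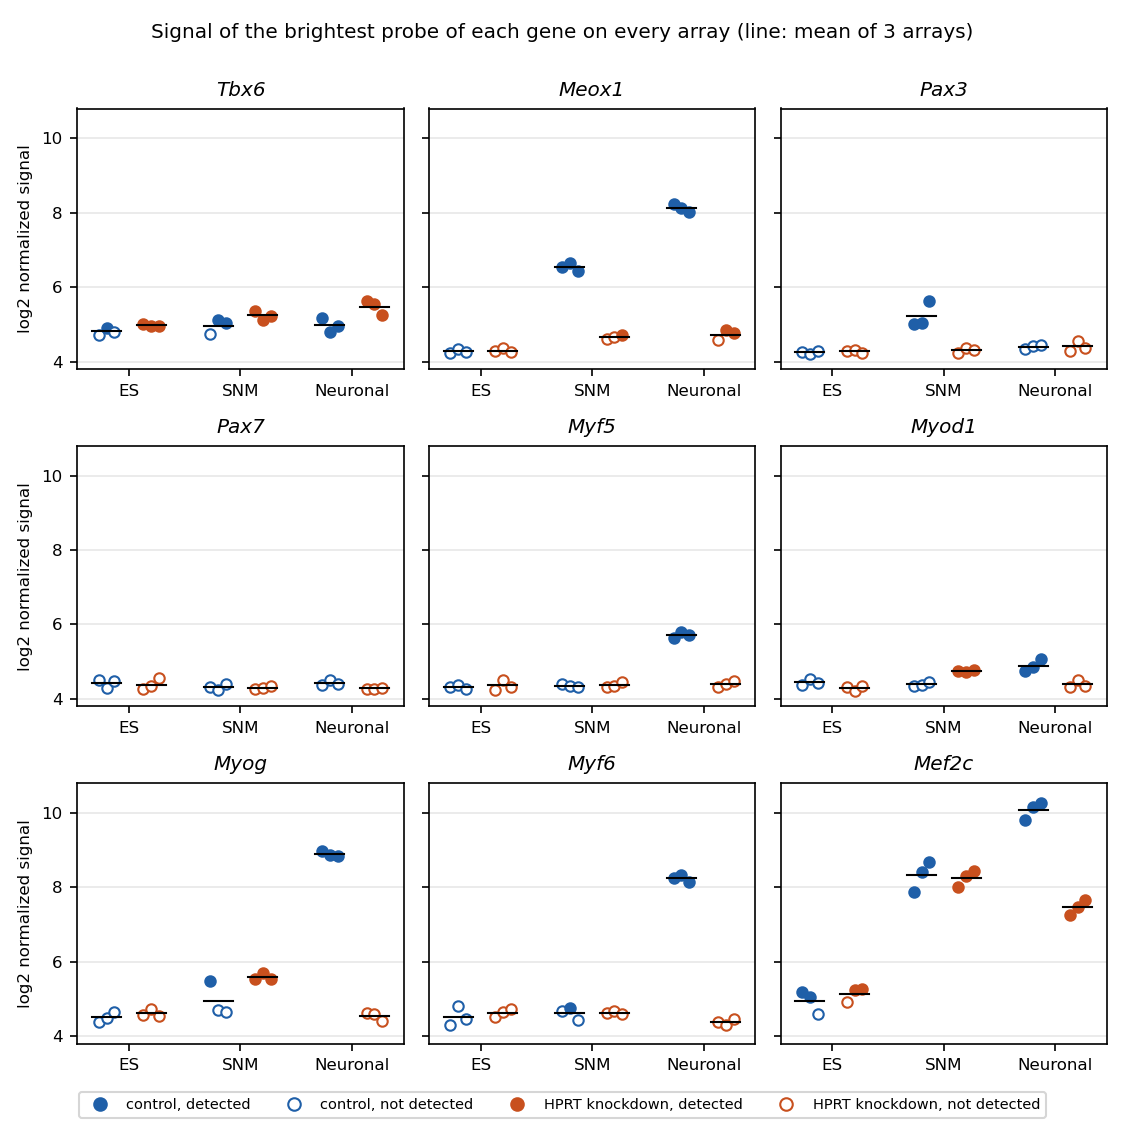
Normalized log2 signal (vertical axis) of the brightest probe of each of the 9 genes on each array, by stage, with control in blue and HPRT knockdown in orange, filled circles for arrays on which the probe was detected, open circles where it was not, and a line at the mean of 3 arrays. Control cells at the neuronal stage carry high Myf6, Myog, Meox1 and Mef2c, while Meox1 already separates the lines at the SNM stage.

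In control cells, Meox1, Pax3 and Mef2c rose between the ES and the SNM stage. By their brightest probes Tbx6, Pax7, Myf5, Myf6, Myod1 and Myog did not pass the detection filter. In this comparison 23.7% of the probes tested were called higher, but the 3 members passed the filter through the SNM arrays, where they are high, so that their count is not set against that share. Meox1, a homeobox gene of the somite, read 6.55, 6.65 and 6.44 in control SNM and between 4.24 and 4.36 on all ES arrays, where it was not detected. The rise was at least 3.2-fold (log2 difference 2.27 ± 0.07, adjusted p = 1.2e-13 by limma), and without background correction the log2 difference was 1.27 after quantile normalization and 1.03 after 75th percentile scaling. Pax3, the paired-box factor of muscle progenitors, dorsal neural tube and neural crest, read 5.02, 5.03 and 5.63 in control SNM against 4.26, 4.22 and 4.29 in control ES. This was the condition in which Pax3 was detected on all arrays, and no other condition shared that. The rise was at least 1.28-fold (0.97 ± 0.12, adjusted p = 1.87e-06). When arrays were instead scaled to the 75th percentile with no background step it was 0.29 and no longer reached 1.5-fold.

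Mef2c reached far higher signals at the SNM stage than at the ES stage in both lines. Its brightest probe read 5.20, 5.04 and 4.59 in control ES and 7.87, 8.42 and 8.67 in control SNM. In knockdown cells the readings were 4.92, 5.24 and 5.28 at the ES stage and 8.0, 8.29 and 8.45 at the SNM stage. The SNM arrays lay well above the ES arrays, by 3.38 ± 0.20 in control (adjusted p = 2.25e-10) and 3.10 ± 0.20 in knockdown cells (adjusted p = 4.96e-10). A further Mef2c probe, ILMN_2887992, moved less, by 0.92 ± 0.32 in control (adjusted p = 0.0148) and 0.61 ± 0.32 in knockdown cells (adjusted p = 0.0851), so that the probes differ on the size of the rise and, in knockdown cells, on the call. The mean over the probes of Mef2c rose by 1.03 in control and 0.81 in knockdown cells, and without background correction the brightest probe rose by 2.07 to 2.23 in control cells.

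Knockdown cells at the SNM stage differed from control cells in both directions. Meox1 and Pax3 were lower, Myog was higher, and Mef2c, Myf5, Myf6, Pax7 and Tbx6 did not pass the call. With 6 of the 9 members past the detection filter, 1 was called higher and 2 lower. Of all 20765 probes tested, 11% were called higher and 8.9% lower. The called members passed the filter only through the line in which they are high, so that their counts are not set against these shares. The median log2 difference of the 9 members was 0.01 and that of all probes tested was -0.04.

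Meox1 read 4.60, 4.67 and 4.71 in knockdown SNM, detected on 1 of the 3 arrays, against the control values of 6.44 to 6.65 given above. No array of one line came near those of the other. The fall was 3.69-fold (log2 difference -1.89 ± 0.07, SE, adjusted p = 1.12e-11). Without background correction it was -0.97 after quantile normalization and -1.06 after 75th percentile scaling, still called. The effect of the knockdown on Meox1 was itself different at the SNM and the ES stage (difference of the effects -1.91 ± 0.11, adjusted p = 1.66e-09, with -1.0 and -1.03 under those normalizations). Meox1 and Pax3 were the 2 members called for this difference, both lower, and 9.61% of all probes tested were called lower. Both members passed the filter only through the control SNM arrays, where they are high, so that the count is not set against that share.

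Pax3 was not detected in knockdown SNM, with log2 signals of 4.24, 4.36 and 4.31. Its level there was at least 1.46-fold lower than in control SNM (-0.92 ± 0.12, adjusted p = 9.71e-06), and the difference from the effect at the ES stage was -0.95 ± 0.17 (adjusted p = 0.00038). All 3 control arrays lay above all 3 knockdown arrays, as for 29.4% of all probes tested in this direction. Without background correction the same difference was -0.52 after quantile normalization and -0.58 after scaling to the 75th percentile, both under 1.5-fold with adjusted p-values of 5.49e-06 and 5.1e-06.

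Myog, the bHLH factor that drives terminal muscle differentiation, read 5.53, 5.71 and 5.54 in knockdown SNM, where it was detected on all 3 arrays. In control SNM it read 5.47, 4.71 and 4.64 and was detected on 1 array. Every knockdown array was above every control array, although the highest control array, at 5.47, lay just under the lowest knockdown array, at 5.53. The rise was 1.57-fold (0.65 ± 0.16, adjusted p = 0.00246 by limma). This call is the least firm of the set. The second Myog probe, ILMN_2621812, gave 0.05 ± 0.19 (adjusted p = 0.842), the mean of both probes gave 0.35 (adjusted p = 0.0613), the normalizations without background correction gave 0.29 and 0.34, and the difference fell to 0.54 without control array 2 and to 0.51 without control array 3, both below 1.5-fold. In knockdown cells alone, Myog rose at least 1.58-fold from the ES to the SNM stage (0.97 ± 0.16, adjusted p = 3e-05) by the brightest probe and read -0.32 ± 0.19 (adjusted p = 0.123) by the other.

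Myod1, which commits cells to the muscle fate, followed the same order at lower signals. It read 4.76, 4.73 and 4.79 in knockdown SNM, detected on all 3 arrays, and 4.34, 4.37 and 4.46 in control SNM, detected on none. The arrays of the lines did not overlap, as for 26.7% of all probes tested in this direction. The difference of 0.37 ± 0.07 had an adjusted p of 0.000586 and was under 1.5-fold, so that it did not count as called. Without background correction this difference was 0.22 after quantile normalization (adjusted p = 0.00486 by limma) and 0.21 after 75th percentile scaling (adjusted p = 0.0502). Over differentiation of knockdown cells into SNM the gain was 0.47 ± 0.07 (adjusted p = 2.49e-05), again under 1.5-fold. Under those normalizations the gain was 0.33 (adjusted p = 3.52e-05) and 0.07 (adjusted p = 0.487). Mef2c and Myog were the 2 members called higher between these stages in knockdown cells, where 26.4% of all probes were; both passed the filter only through the SNM arrays, so that the count is not set against that share.

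Mef2c differed by less than the spread between arrays at the SNM stage, with a log2 difference of -0.07 (95% confidence interval -0.51 to 0.37, adjusted p = 0.789). Tbx6 read 5.37, 5.13 and 5.24 in knockdown and 4.74, 5.13 and 5.04 in control SNM, and the difference of 0.28 ± 0.12 did not pass the test (adjusted p = 0.0532). Myf5 and Pax7 were detected on none of the SNM arrays and Myf6 on 1 control array, so that changes in these genes below the detection limit could not have been seen.

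**Figure D2:**
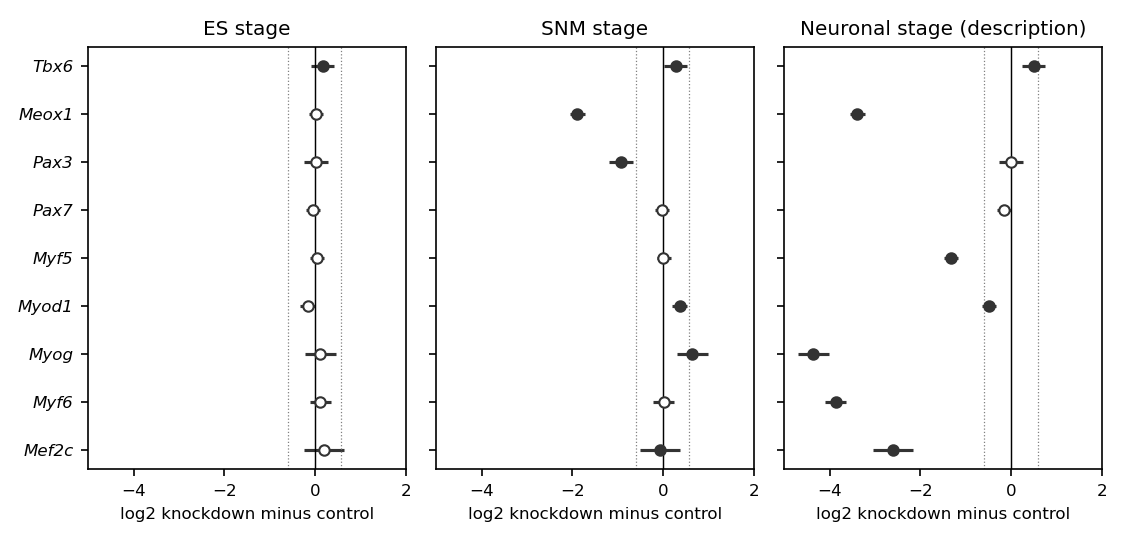
Log2 difference of knockdown minus control (horizontal axis) for each gene and stage with its 95% confidence interval from the limma fit, filled where all 3 arrays of at least 1 line detected the probe and open otherwise. Dotted lines mark 1.5-fold, and at the SNM stage Meox1 and Pax3 lie to their left and Myog to their right.

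The genes that these factors control were read from lists of the pathway. Of 44 skeletal muscle differentiation genes on the array, 32 were detected at the SNM stage, and 24 of these were called higher in knockdown cells and 0 lower, with a median log2 difference of 0.82 against -0.04 over all probes tested. Of the 24 genes detected on all arrays of both lines 19 were called higher. The largest rises were in the muscle phosphoglycerate mutase Pgam2 (2.03 ± 0.13, adjusted p = 4.11e-09), the perinatal and embryonic myosin heavy chains Myh8 (1.99 ± 0.15, adjusted p = 3.03e-08) and Myh3 (1.69 ± 0.10, adjusted p = 9.07e-10), and the fetal acetylcholine receptor subunit Chrng (1.63 ± 0.09, adjusted p = 7.67e-10). The summed signal of the 44 genes was 9379 to 9801 on the knockdown and 4510 to 4761 on the control arrays. Meox1 and Pax3 were thus lower and the muscle structural genes higher in the same knockdown SNM.

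The paraxial mesoderm and somite list had 12 genes tested at the SNM stage, of which 2 were called higher and 6 lower in knockdown cells. T (Brachyury), the T-box factor of the primitive streak and early mesoderm, rose by 3.42 ± 0.11 (adjusted p = 8.96e-13). Meox2, the paralogue of Meox1, fell by 2.07 on the log2 scale (SE 0.11, adjusted p = 3.03e-10) and Tcf15, the somite bHLH factor paraxis, fell by 1.54 (SE 0.12, adjusted p = 2.17e-08). Among 23 partners and repressors of the myogenic factors, 4 were higher and 2 lower. Those that moved most included the inhibitor Id4 (1.36 ± 0.08, adjusted p = 1.47e-09), which keeps bHLH partners from DNA, and the myostatin antagonist follistatin, Fst, which fell by 1.07 (SE 0.27, adjusted p = 0.00303).

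Markers of other cell types moved as well, some of which share members of the set. Of 13 dorsal neural tube and neural crest genes tested, 4 were higher and 3 lower in knockdown SNM. Lmx1a rose by 2.42 (adjusted p = 3.33e-11) and Msx1 rose by 1.48 (adjusted p = 1.34e-07). The crest factors Tcfap2b and Sox10 fell by 2.41 (adjusted p = 2.76e-06) and fell by 1.75 (adjusted p = 6.25e-11). Other genes of the same list went the other way. Ednrb had a mean log2 signal of 12.92 in knockdown SNM and 12.02 in control SNM. The knockdown effect on Sox9 was -0.89 at the ES stage and was higher by 1.66 at the SNM stage (adjusted p = 6.66e-09 by limma). The summed signal of that list was 16242 to 18064 in knockdown and 12899 to 14385 in control SNM. Heart markers, which share Mef2c, gave 3 higher and 0 lower of 6 tested, with summed signals of 1051 to 1147 against 558 to 590. Of the 3 heart markers detected on all arrays of both lines, 1 was called higher. Of 13 fibroblast genes, 4 were higher and 1 lower, with summed signals of 8914 to 10453 against 7466 to 8104. The feeder cells of the ES culture are fibroblasts too. Endothelial markers gave 2 higher and 1 lower of 6. Neuron markers gave 0 higher and 3 lower of 9, with summed signals of 6491 to 7461 against 7729 to 8587, and embryonic stem cell markers 0 higher and 5 lower of 9, with 7341 to 7710 against 10511 to 11483. The part of these cell types in the differences of Pax3, Mef2c and the other members was not tested.

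**Figure D3:**
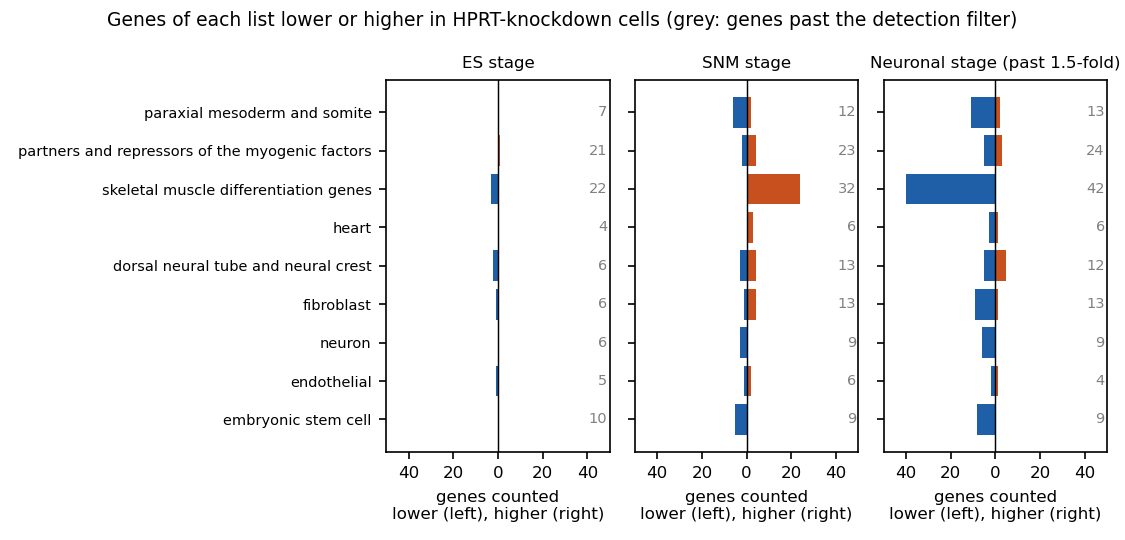
Number of genes of each list higher (right, orange) or lower (left, blue) in HPRT-knockdown cells, by the call at the ES and SNM stages and by 1.5-fold with no test at the neuronal stage, with the number past the detection filter in grey. Of the skeletal muscle differentiation genes, 24 of 32 were higher at the SNM stage and 40 of 42 lower at the neuronal stage.

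At the neuronal stage, control cells carried Myf5, Myf6, Myog, Mef2c and Meox1, and knockdown cells had them lower or undetected by the brightest probe. In control cells 7 of the 9 members were detected on all 3 arrays, all but Pax3 and Pax7, and in knockdown cells 2 were, Mef2c and Tbx6, or 3 with Myog by its second probe. The values below chose the genes and carry no test. Past 1.5-fold, 5 members were lower in knockdown cells and none was higher, where 13.6% of all 20893 probes were past 1.5-fold in the lower direction.

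Myog read 8.98, 8.86 and 8.85 in control cells and 4.62, 4.60 and 4.40, not detected, in knockdown cells, at least 17.8-fold lower by its brightest probe. Its second probe, ILMN_2621812, was detected on all 3 arrays of both lines and read 6.42, 5.61 and 6.14 against 5.01, 4.79 and 4.79, which is 2.29-fold lower. Myf6 read 8.26, 8.33 and 8.13 in control cells and 4.38, 4.31 and 4.45, not detected, in knockdown cells, at least 11.3-fold lower. Both genes belong to the late, differentiating step of myogenesis, and both were higher in control neuronal cultures than in any other condition.

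Myf5 was detected in control neuronal cells and in no other condition. It read 5.64, 5.81 and 5.72 there and 4.33, 4.41 and 4.47 in knockdown cells, at least 1.97-fold lower. Myod1 read 4.76, 4.85 and 5.06 against 4.33, 4.52 and 4.36, at least 1.11-fold lower. By the fitted values it was 1.4-fold lower, which is under 1.5-fold. Its control neuronal arrays and its knockdown SNM arrays, all detected, overlapped at 4.76 to 4.79.

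Meox1 read 8.23, 8.12 and 8.02 in control and 4.59, 4.84 and 4.76 in knockdown cells, where 2 arrays detected it, a 10.5-fold difference that extends the one seen at the SNM stage. Mef2c read 9.80, 10.15 and 10.27 in control and 7.26, 7.48 and 7.65 in knockdown cells, 6.11-fold lower, and remained well detected in knockdown cells. Its other probes with a RefSeq accession gave log2 differences of -2.23 for ILMN_2887992 and -3.38 for ILMN_1214950, the same direction with different sizes. The remaining Mef2c probes, ILMN_1220270 and ILMN_2520812, have no accession and were not detected on all arrays of any condition.

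Tbx6 went the other way. It read 5.62, 5.55 and 5.26 in knockdown and 5.17, 4.81 and 4.96 in control cells, a log2 difference of 0.50 that is under 1.5-fold. Pax3 was detected in neither line at this stage, and Pax7, the factor of adult satellite cells, stayed between 4.25 and 4.55 on all 18 arrays.

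Between the SNM and the neuronal stage the lines parted. In control cells Myog gained 3.96, Myf6 3.62, Mef2c 1.76, Meox1 1.58 and Myf5 1.36 on the log2 scale, whereas Pax3 fell at least 1.43-fold. Past 1.5-fold by the fitted values, 5 members were higher and 1 lower, where 14.4% of all probes were higher and 15.4% lower. In knockdown cells Myog was at least 1.8-fold lower than at the SNM stage by its brightest probe (-0.13 by its second) and Mef2c fell by 0.78, the 2 members past 1.5-fold, where 14.9% of all probes were lower. Skeletal muscle genes showed the same split, with 41 of 42 past 1.5-fold upwards in control cells and 26 of 31 past it downwards in knockdown cells, where the directions are part of what selected the factors. Their summed signal was 162906 to 167132 in control neuronal cultures and 1009 to 1334 in knockdown cultures, below the 9379 to 9801 of knockdown SNM. The troponin Tnnc2 differed between the lines by -8.56 and skeletal actin Acta1 by -8.03. In the somite list T was higher by 4.24 and Meox2 lower by 4.34 in knockdown neuronal cultures, and Uncx, a homeobox gene of the caudal somite, was at least 4.57-fold lower. Fibroblast genes were past 1.5-fold lower too, 9 of 13, with summed signals of 14573 to 17725 against 24928 to 28437, as were 6 of 9 neuron markers, with 5479 to 6350 against 11116 to 12078, and 8 of 9 embryonic stem cell markers, with 3984 to 4332 against 9997 to 10306. Neural crest genes split, 5 higher and 5 lower of 12, with summed signals of 20470 to 22122 against 9871 to 10512. The largest change was in Sox10, higher by 5.85, followed by Tcfap2b (-1.68), Zic1 (-1.58) and Snai2 (-1.51), all lower in knockdown cultures. Their part in the differences of the members was not tested.

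Across the 18 arrays, the members fell into patterns that are given as descriptions, since the arrays share RNA pools and 6 conditions. Myf5, Myf6 and Myog ran together, with a Pearson correlation of log2 signals of 0.987 for Myf5 and Myf6, 0.970 for Myf6 and Myog and 0.959 for Myf5 and Myog. Pax3 followed none of these, with correlations of -0.096 to -0.0812. The genes most like each member, among 23161 other probes, were Mustn1 and Myl2 for Myf6 (both 0.996), and the muscle calcium pump Atp2a1 (0.994) and Myh8 (0.993) for Myog. For Myf5 they were EG435391 (0.995), 1110002E22Rik (0.994) and Tpm3 (0.993). Prtg (0.949) and Tcfap2b (0.938) came nearest to Pax3, Foxc2 (0.991) to Mef2c, Tbx1 (0.976) to Meox1, Col1a1 (0.912) to Myod1 and Cope (0.898) to Tbx6. Each of these correlations largely reflects which conditions are high.

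Array number moved with the Mef2c signal. For each of the 3 Mef2c probes with a RefSeq accession, array 1 gave the lowest of the 3 readings in all 4 conditions of the SNM and neuronal stages, which held for 8.1% of the 22160 probes detected in those conditions. In control SNM, for example, ILMN_2887992 read 5.87 on array 1 and 7.12 on array 3. What the array numbers share is not given in the sources used here, and their part in the Mef2c values was not tested beyond the fit with array number as a block.

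**Figure D4:**
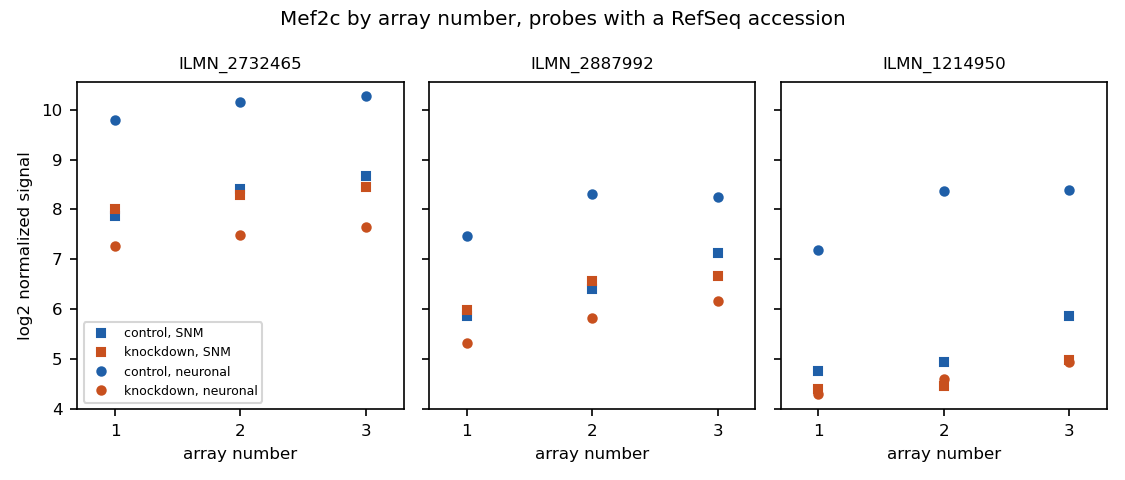
Normalized log2 signal (vertical axis) of the 3 Mef2c probes with a RefSeq accession by array number, squares for the SNM and circles for the neuronal stage, control in blue and knockdown in orange. Array 1 is the lowest of its condition in every panel, and the control neuronal arrays lie highest throughout.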

How the data were processed

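Total RNA was hybridised to 18 Illumina mouse bead arrays. The authors deposited a non-normalized table of bead intensity and detection p-value per probe and array, and per the file headers a probe annotation with symbols, chromosomes and accessions (other columns); 72 further per-sample columns were not used. Intensities were background-corrected and quantile-normalized with neqc, which infers the negative controls from the detection p-values (limma 3.58.1, R 4.3.3, offset 16), and taken to log2. One limma model with 6 conditions was fitted to all probes and 18 arrays, with Benjamini-Hochberg adjustment over the probes detected (p below 0.05) on all 3 arrays of a condition compared. A call needed an adjusted p below 0.05 and 1.5-fold. A gene is its brightest probe. Where the dim group was detected on no array, the fold is a bound ("at least"): the bright group's mean against the lowest signal among detected probes, or the dim probe's own if higher. Confidence intervals are 95% with 12 residual degrees of freedom. An exact permutation of 3 against 3 arrays cannot go below 0.1. The number of arrays limits precision. The model was tested on simulated data.

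The members, gene lists and tests were chosen with earlier results of these data known. All 9 members are named, with the probe where a gene has several, and Hprt1, up to 4 of the most changed genes of each list and up to 3 genes most like each member. Some genes of the lists are counted but not reported here by name. Promoter windows are from RefSeq (GRCm38.p6); 5 of 9 members had one. Array numbers were taken from the sample titles, and on some samples the description gives another replicate number. Control and knockdown arrays of the same number deviated together at the SNM stage (correlations of 0.518, 0.107 and 0.507 for arrays 1, 2 and 3). At the neuronal stage the correlations were 0.637, 0.0921 and 0.348, and at the ES stage they were lower (-0.128, -0.011 and 0.113). Alternatives were normalization, detection filter, minimum fold, probe averaging, array number as a block, arrays of the compared conditions alone, a t-test as in the methods, and leaving out each array.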

Additional observations from a re-analysis of the deposited data

Results flagged for a closer look

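The effect of the knockdown differed between the ES and the SNM stage for Pax3 and Meox1 by a test of the difference itself in the limma model. It was lower at the SNM stage by a log2 difference of -0.95 for Pax3 (adjusted p = 0.00038) and -1.91 for Meox1 (adjusted p = 1.66e-09). For the brightest probes of Myog and Myod1, every knockdown array lay above every control array at the SNM stage and below every control array at the neuronal stage. Of all probes tested, 26.7% lay above in this way at the SNM stage and 30.9% lay below at the neuronal stage. The log2 differences were 0.65 and -4.36 for Myog, and 0.37 and -0.49 for Myod1. By the second Myog probe, ILMN_2621812, the lines overlapped at the SNM stage (0.05 ± 0.19, adjusted p = 0.842 by limma). The difference between these stages was not tested, since the neuronal-stage values chose the genes.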

How the results depend on the processing

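No called difference reversed. Of differences that were not called, Tbx6 from ES to SNM in knockdown cells went from 0.27 to -0.06 and Tbx6 at the ES stage from 0.17 to 0 under 75th percentile scaling. Mef2c at the SNM stage went from -0.07 to 0.05 without knockdown array 1 and to 0.10 without control array 3, in a range of -0.30 to 0.10 over the arrays left out. The Tbx6 difference of effects went from 0.11 to 0 without control SNM array 1, in a range up to 0.19. The count of members called at the SNM stage was 3, and it became 1 (Meox1) after quantile normalization without background correction, after scaling to the 75th percentile, and with a 2-fold minimum. The count for the knockdown effect at the SNM stage minus the ES stage went from 2 to 1 (Meox1) under these same 3 alternatives. The count from the ES to the SNM stage in knockdown cells went from 2 to 1 (Mef2c) under them and with the mean over the probes of a gene, and to 4 with no minimum fold. Leaving out each array gave 2 to 3 members at the SNM stage and 2 to 3 for the difference of effects, and 3 for control cells and 2 for knockdown cells from ES to SNM. Without control SNM array 1 the difference of effects for Myog was 0.80 (adjusted p = 0.000184 by limma) and was called. At the neuronal stage 5 to 6 members were past 1.5-fold. With array number as a replicate block the counts were 3 members at the SNM stage, 3 and 2 from ES to SNM in control and knockdown cells, 2 for the difference of effects and 0 at the ES stage, and the block changed no call of a member. The rise of Myog from ES to SNM in knockdown cells was 0.44 after quantile normalization, 0.25 after 75th percentile scaling and 0.32 for the mean of its probes, none of them called. The methods' t-test on the Myog difference at the SNM stage gave an unadjusted p of 0.073 and 0.139 after Benjamini-Hochberg adjustment. Over all probes, 2278 were higher and 1849 lower at the SNM stage, against 1382 and 946 after quantile normalization and 1241 and 1211 after 75th percentile scaling. At the ES stage 95 and 215 became 12 and 46, and 14 and 42. A 2-fold minimum left 898 higher and 369 lower in SNM, with 6 and 19 in ES cells, while no minimum fold gave 5157 and 5794, and 1068 and 1014. Probe averaging, with fewer features tested, gave 1388 and 1017, and 50 and 106. Scaling to the 75th percentile moved the median of all probes from ES to SNM to -0.171 in control and -0.211 in knockdown cells, from -0.082 and -0.111. The cause of these changes was not tested. Signals near background limit Pax3, Myod1, Tbx6 and the lower Myog readings.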
